A study of Mus musculus with 64 samples.

Results

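Collagens, laminins and Adamts proteases build and cut the extracellular matrix. They were taken as every gene whose symbol has the form of a numbered collagen chain, of a laminin alpha, beta or gamma chain, or of a numbered Adamts or Adamts-like gene. The rule gave 79 of the 48795 genes counted, of which 44 were collagens, 11 laminins, 19 Adamts proteases and 5 Adamts-like proteins. After a filter on low counts, 75 of the 79 could be tested in striatum, 75 in cortex and 76 between the tissues. Col10a1, Adamts12 and Adamts14 were too low in both tissues, Adamts13 in striatum and Adamts19 in cortex.

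A laminin is a trimer of 1 alpha, 1 beta and 1 gamma chain, and laminins and type IV collagen form the separate networks of the basement membrane that surrounds brain vessels. Fibrillar collagens form fibres, and the collagens called FACIT sit on those fibres. Between neurons there is little fibrillar collagen, and the matrix there is made mainly of hyaluronan and chondroitin sulphate proteoglycans such as brevican. Adamts proteases are secreted metalloproteases: one branch cuts proteoglycans, another removes the amino-terminal propeptide of procollagens, and the Adamts-like proteins carry the ancillary domains without a protease domain.

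RNA was sequenced from striatum and cerebral cortex of 32 C57BL/6 mice aged 6 months, 8 per genotype (4 of each sex), and each mouse gave a striatal and a cortical library. The groups were Q140 Polq+/- (heterozygous for the Q140 knock-in and labelled as lacking 1 copy of Polq), Q140 (heterozygous for the knock-in, both Polq copies), Polq+/- (both Htt alleles normal) and wild type. Q140 is an expanded CAG tract placed in the mouse's own huntingtin gene, Htt, so the mutant protein is made wherever Htt is expressed, and the mouse is used as a model of Huntington's disease. Polq encodes a DNA polymerase that joins broken DNA ends. The comparisons asked what the knock-in changed on each Polq background and whether the loss of a Polq copy changed that.

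Libraries held 28706673 to 40622382 gene counts in striatum (median 34698672) and 30888166 to 40107413 in cortex (median 34545074). The tissues matched their labels: the summed level of 8 spiny projection neuron markers was 6089 to 11890 CPM (counts scaled to the size of the library) over the striatal libraries, against 250.3 to 326.1 CPM over the cortical ones. Polq itself stood at 0.187 to 0.376 CPM in striatum of 4 mice labelled as having 1 copy (females 3 and 4 and male 3 of Q140 Polq+/-, and Polq+/- male 3), against 1.31 to 2.42 CPM in the other 12, so every direction drawn from the Polq+/- labels carries that doubt. In striatum 3 libraries stood apart: Polq+/- female 3, whose 10 choroid plexus markers summed to 1445 CPM against at most 45.7 in the other Polq+/- mice; wild-type male 2, whose cerebellar granule markers summed to 251.2 CPM against at most 25.9; and wild-type male 3, with the lowest Htt of its group at 137.2 CPM. Counts of members called in the knock-in comparisons of striatum are given with and without those 3.

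The promoter sequences of 4 members are shown because these members stood for the main patterns below: Col4a1 and Col4a2, the chains of the most widespread type IV collagen, which start from one shared head-to-head promoter; Col11a1, which was higher in Q140 striatum; and Adamts2, which was lower there. Each window runs from 250 bases before to 50 bases after the start, 5′ to 3′ on the gene's strand, from RefSeq on GRCm38.p6. Capitals mark matches, on either strand, to the TATA box (TATAAA), the CCAAT box (CCAAT), the GC box (GGGCGG), the AP-1 site (TGANTCA) or the cAMP response element (TGACGTCA).
Col4a1 (chr8:11312777-11313076, minus strand): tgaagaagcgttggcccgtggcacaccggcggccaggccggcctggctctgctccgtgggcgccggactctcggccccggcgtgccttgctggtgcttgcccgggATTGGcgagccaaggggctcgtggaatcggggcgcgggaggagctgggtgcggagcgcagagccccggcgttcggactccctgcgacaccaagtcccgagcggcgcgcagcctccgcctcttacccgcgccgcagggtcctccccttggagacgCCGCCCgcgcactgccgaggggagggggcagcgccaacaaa
Col4a2 (chr8:11312555-11312854, plus strand): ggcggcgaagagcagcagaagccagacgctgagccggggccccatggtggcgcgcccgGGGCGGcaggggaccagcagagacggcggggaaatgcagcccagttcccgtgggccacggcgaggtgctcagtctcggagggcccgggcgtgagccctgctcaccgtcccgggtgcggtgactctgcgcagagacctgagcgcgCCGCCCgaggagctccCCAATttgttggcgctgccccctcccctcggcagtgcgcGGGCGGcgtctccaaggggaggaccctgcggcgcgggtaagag
Col11a1 (chr3:114030290-114030589, plus strand): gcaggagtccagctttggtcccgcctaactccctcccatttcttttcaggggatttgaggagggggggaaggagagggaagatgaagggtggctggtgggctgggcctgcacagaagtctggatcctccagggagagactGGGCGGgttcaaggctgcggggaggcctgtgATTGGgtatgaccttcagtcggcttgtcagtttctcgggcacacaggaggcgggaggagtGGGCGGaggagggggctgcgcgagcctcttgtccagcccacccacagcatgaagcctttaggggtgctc
Adamts2 (chr11:50601835-50602134, plus strand): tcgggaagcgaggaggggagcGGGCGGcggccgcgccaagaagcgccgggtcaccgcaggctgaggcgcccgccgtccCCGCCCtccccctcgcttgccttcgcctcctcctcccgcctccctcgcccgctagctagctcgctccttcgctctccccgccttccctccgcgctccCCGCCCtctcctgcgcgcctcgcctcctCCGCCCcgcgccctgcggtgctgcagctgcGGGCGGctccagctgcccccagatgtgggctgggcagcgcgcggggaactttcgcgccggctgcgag

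The Col4a1 and Col4a2 windows share 78 bases on opposite strands. The annotated genes overlap by 22 bases at their starts. The bases before each start therefore lie within the annotated body of the other gene, and matches there are also in that gene. GGGCGG matched 1 time in the Col4a1 window, 3 times in that of Col4a2, 2 times in that of Col11a1 and 5 times in that of Adamts2. CCAAT matched 1 time in each of the first 3 and was not found in the letters of the Adamts2 window, and no TATAAA was found in the letters of any of the 4. The windows were rich in G and C, at 74.0%, 73.7%, 62.3% and 77.3% in the same order. Of the 79 members 54 matched a RefSeq entry, with 58 windows in all. GGGCGG was present in 65.5% of those 58, against 35.7% of all 32851 promoters, and TATAAA in 12.1% against 13.6%. CCAAT was present in 29.3% of member windows against 37.4% of all, TGANTCA in 1.72% against 7.81%, and TGACGTCA in 1.72% against 1.79%. These are matches of letters, and none of them was read as a bound site.

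Levels between genes are given per length, as FPKM averaged over all 32 libraries of a tissue. Striatum was dominated by a type VI chain: Col6a1, the alpha 1 chain of the beaded microfilament collagen, had 30.5 FPKM in striatum and 9.01 in cortex. Its partner chain Col6a2 had 3.61 FPKM in striatum and 2.39 in cortex. The procollagen-cleaving protease Adamts3, which also cuts reelin in the mouse brain, had 13.6 FPKM in striatum and 2.25 in cortex. Its relative Adamts2 had 0.836 FPKM in striatum and 0.760 in cortex. In cortex the most abundant member was Col4a2, with 6.09 FPKM in striatum and 10.5 in cortex, and Col4a1 had 3.63 in striatum and 7.36 in cortex.

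Among the fibrillar chains Col11a2, a chain of cartilage type XI collagen, led in striatum, with 7.64 FPKM there and 3.92 in cortex. Of the laminins, the gamma 1 chain Lamc1 had 6.69 FPKM in striatum and 4.67 in cortex, and Lamb2 had 4.82 in striatum and 5.32 in cortex. Lamb1 had 5.25 FPKM in striatum and 0.766 in cortex. The alpha chains were lower, with Lama5 at 1.49 in striatum and 1.51 in cortex and Lama2 at 1.02 and 0.980. Among the proteoglycan-cleaving proteases the aggrecanase Adamts4 was highest in striatum, at 7.09 FPKM against 2.74 in cortex, and Adamts1 had 1.45 in striatum and 1.90 in cortex. The transmembrane collagen Col25a1, a neuronal collagen found in amyloid plaques, was close in level in both tissues, at 3.61 FPKM in striatum and 3.10 in cortex. In the remaining classes the leading members in striatum were Col9a3 (3.37 FPKM), Adamts10 (3.69), Adamtsl4 (3.25), Col15a1 (0.639) and Col8a2 (0.550).

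The comparison of the tissues in wild-type mice showed which members belong to which region before any mutation. In edgeR's quasi-likelihood test with Benjamini-Hochberg adjustment and the mouse as a block, 63 of 76 members differed (82.9%, against 77.2% of all genes tested), 27 higher and 36 lower in striatum, where 39.1% of all genes were higher and 38.1% lower. The CPM ranges of the groups did not overlap for 38 of the 76, and for 44.2% of all genes. Without the 3 mice whose striatal libraries stood apart 60 members differed, 26 higher and 34 lower. The median log2 difference, striatum minus cortex, was -0.20 over the members and 0.02 over all genes. Type VI and laminin beta chains made up 4 of the 8 members with the largest striatal excess, while fibrillar, FACIT and type IV chains were mostly lower in striatum.

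Type VI chains were higher in striatum in 4 of 6 cases, with 1 lower. Col6a1 ran from 21.6 to 39.3 FPKM in wild-type striatum (median 31.8), against 7.36 to 11.1 in wild-type cortex (median 8.12), a log2 difference of 1.78 ± 0.11 (SE; adjusted p = 5.73e-15). The ranges did not overlap, and every striatal library was above every cortical one. Col6a5 (4.46 ± 0.25) and Col6a4 (2.68 ± 0.15) differed even more on the log2 scale, from cortical medians of only 0.0241 and 0.385 FPKM, and Col6a2 differed less (0.41 ± 0.044).

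Lamb1, a beta chain shared by several laminins, had 4.08 to 5.28 FPKM in wild-type striatum (median 4.74), against 0.632 to 0.985 in wild-type cortex (median 0.768). Its log2 difference was 2.59 ± 0.042 (adjusted p = 1.41e-39), without overlap. Adamts3 showed a similar gap, at 9.79 to 15.97 FPKM in striatum (median 13.7) against 1.77 to 2.33 in cortex (median 2.16; log2 difference 2.66 ± 0.07). The other members among the 8 with the largest striatal excess were Col17a1, a transmembrane collagen of hemidesmosomes (1.63 ± 0.15), Adamts19 (1.57 ± 0.27) and Adamts6 (1.32 ± 0.099).

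Of the laminin chains best known from skin, Lama3 (log2 difference 0.25 ± 0.079) and Lamb3 (0.76 ± 0.098) were higher in striatum. Lower in striatum were the fibrillar chains Col5a1 (-3.80 ± 0.09), which regulates fibril width, and Col24a1 (-2.77 ± 0.11). The FACIT chains Col22a1 (-3.24 ± 0.20) and Col12a1 (-2.44 ± 0.12) were lower as well. The same held for the network-forming Col8a1 (-3.43 ± 0.42), for the fibrillin-binding Adamtsl2 (-2.49 ± 0.11) and for Adamts13, which cuts von Willebrand factor (-3.92 ± 0.31).

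Both type IV chains of the shared promoter were lower in striatum. Col4a1 had 3.31 to 4.12 FPKM in wild-type striatum (median 3.81), against 6.86 to 8.32 in wild-type cortex (median 7.79; log2 difference -1.06 ± 0.043). Col4a2 had 5.19 to 6.79 FPKM in striatum (median 6.23), against 9.64 to 12.03 in cortex (median 11.6; -0.91 ± 0.036). Neither pair of ranges overlapped. Fibroblast and meningeal markers moved with these differences: 9 of 10 were lower in wild-type striatum, with sums of 75.5 to 87.0 CPM there and 94.0 to 167.4 CPM in wild-type cortex. For 10 endothelial markers 3 were higher and 4 lower, with sums of 240.8 to 266.0 CPM in striatum and 221.9 to 261.3 in cortex, and no marker of either list was at 0. Sums of 10 mural cell markers lay the other way, at 232.6 to 262.4 CPM in wild-type striatum (median 244.7) and 207.4 to 235.1 in wild-type cortex (median 227.2). The part of these cells in the differences was not tested.

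**Figure D1:**
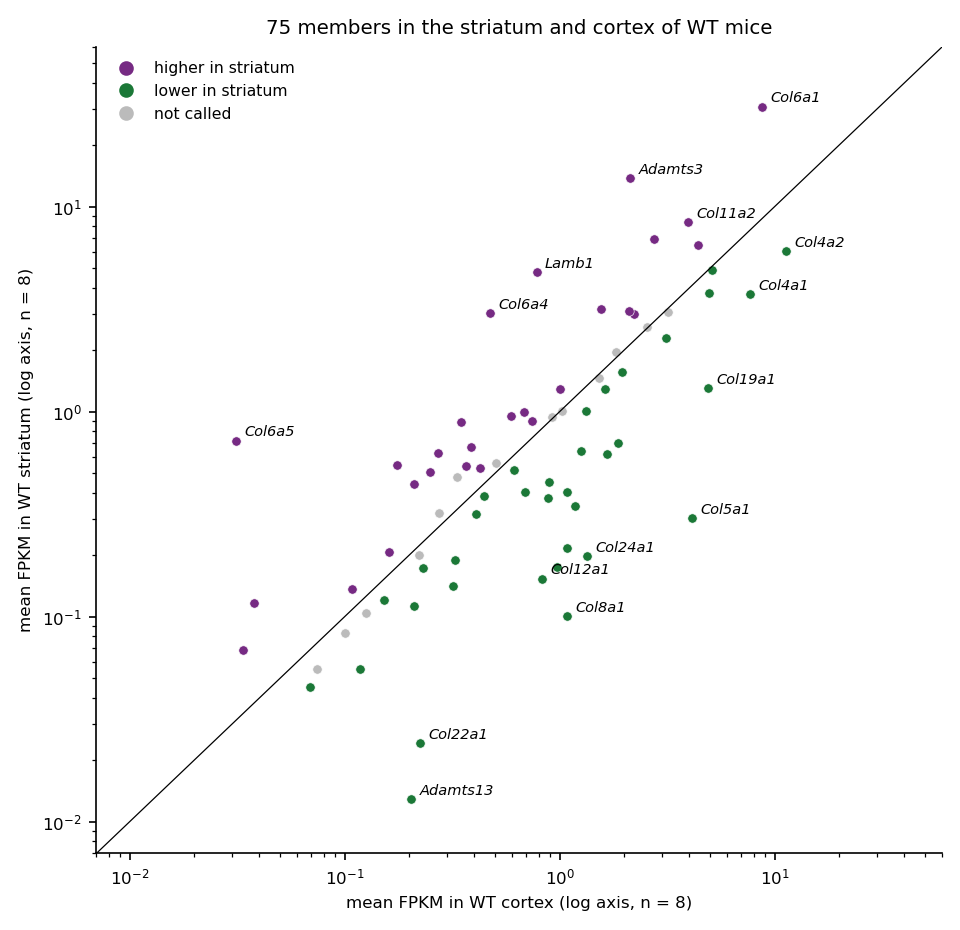
Mean level of 75 tested members in wild-type striatum (vertical axis, FPKM, log scale) against wild-type cortex (horizontal axis, FPKM, log scale), 8 mice per tissue; purple points were called higher in striatum (27), green points lower (35) and grey points were not called. Col6a1 and Adamts3 lie at the top and above the diagonal, and Col5a1 lies far below it.

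In striatum the knock-in changed members of the set in both directions. Of 75 tested members, 19 differed between Q140 and wild type (25.3%, against 32.1% of all genes tested), 9 higher and 10 lower, where 16.9% of all genes were higher and 15.2% lower. The median log2 fold change was -0.04 over the members and 0.0018 over all genes. The groups did not overlap for 7 members, and for 8.25% of all genes; of the 7, Col11a1, Col25a1, Adamts6 and Col6a2 were higher, and Col20a1 and Col11a2 lower. In the mice labelled Polq+/-, 17 of 75 differed between Q140 Polq+/- and Polq+/- (22.7%, against 31.4% of all genes), 10 higher and 7 lower, where 16.1% of all genes were higher and 15.3% lower. Again 7 did not overlap, against 11.5% of all genes. The groups of these comparisons share no library, but scaling and the estimate of spread came from all 32 striatal libraries together. Of the members called, 12 were called in both, in the same direction (8 higher and 4 lower), which is 63.2% of the first list and 70.6% of the second. Over all genes the shared calls were 72.5% of the first list and 74.2% of the second.

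Without the 3 libraries that stood apart the counts were 18 (8 higher and 10 lower) and 18 (10 higher and 8 lower), and without the 4 mice of very low Polq 18 and 12. The split by direction differed with a fit on FPKM, which changed the scaling and the model and added a pseudocount. Which of these mattered cannot be told from it. With limma on log2 (FPKM + 0.1), 11 members were higher and 6 lower in Q140, and 12 higher and 4 lower in Q140 Polq+/-, while the median of all genes moved to 0.06 and 0.07. In bulk tissue, fewer cells of a type and less RNA per cell cannot be told apart.

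Lama3, the alpha chain of the laminin of skin basement membranes, was lower in Q140 striatum, at 6.89 to 9.04 CPM (median 7.92), against 6.54 to 12.4 in wild type (median 10.3; log2 fold change -0.32 ± 0.091, adjusted p = 0.00551). Lama3 was not called in Q140 Polq+/- (-0.08 ± 0.09, adjusted p = 0.572), and Lamb3 in neither comparison (-0.17 and -0.20, adjusted p = 0.184 and 0.121).

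Col11a1 (ENSMUSG00000027966, GRCm38 chromosome 3, 114030540 to 114220718, plus strand) is the other type XI chain, whose promoter is printed above. It had 11.8 to 16.7 CPM in Q140 striatum (median 12.6), against 6.74 to 9.96 in wild type (median 7.95). In Q140 Polq+/- it had 10.8 to 15.0 CPM (median 13.3), against 6.11 to 9.46 in Polq+/- (median 7.01). Neither pair of groups overlapped. The log2 fold change was 0.72 ± 0.09 (adjusted p = 6.29e-08) and 0.85 ± 0.091 (2.73e-09).

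Col11a2, the partner chain, moved the other way. It had 33.8 to 49.7 CPM in Q140 striatum (median 45.8), against 49.97 to 63.7 in wild type (median 58.6), with no overlap (log2 fold change -0.39 ± 0.066, adjusted p = 2.02e-05). In Q140 Polq+/- it had 38.7 to 55.7 CPM (median 49.6), against 49.4 to 63.97 in Polq+/- (median 60.4; -0.27 ± 0.066, adjusted p = 0.00176), and these ranges overlapped. Col2a1, the cartilage type II chain that assembles with type XI, was higher in both, by 0.30 ± 0.097 (adjusted p = 0.0142) and 0.25 ± 0.097 (0.0476). The fibrillar Col27a1 was lower in Q140 (-0.30 ± 0.072, adjusted p = 0.00115) and had -0.18 ± 0.073 (adjusted p = 0.0538) in Q140 Polq+/-. The common fibrillar chains of connective tissue were not called in either: Col1a1 had -0.15 and 0.03, Col1a2 -0.07 and -0.04, and Col3a1 -0.22 and -0.11.

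Col25a1 was higher by a smaller fold but in every knock-in mouse. It had 47.3 to 56.9 CPM in Q140 striatum (median 52.3), against 36.0 to 43.0 in wild type (median 41.4). On the Polq+/- background, Q140 Polq+/- mice had 47.7 to 58.6 CPM (median 52.0), against 38.0 to 44.2 in Polq+/- (median 42.2). Neither pair overlapped, and the log2 fold changes were 0.36 ± 0.046 (adjusted p = 7.95e-08) and 0.32 ± 0.046 (5.29e-07). The other transmembrane collagen called, Col23a1, was lower, at -0.31 ± 0.10 (adjusted p = 0.0174) in Q140 and -0.27 ± 0.10 (0.0418) in Q140 Polq+/-.

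Among type VI chains Col6a2 was higher, with 30.1 to 35.2 CPM in Q140 striatum (median 33.8), against 20.6 to 28.8 in wild type (median 25.7; log2 fold change 0.39 ± 0.069, adjusted p = 3.87e-05). The Q140 Polq+/- mice had 31.0 to 46.6 CPM (median 33.9), against 23.3 to 33.3 in Polq+/- (median 25.1; 0.44 ± 0.069, adjusted p = 4.81e-06). The first pair did not overlap and the second did, through 1 high Polq+/- mouse. Col6a1 lies 85.2 kb from Col6a2 on chromosome 10 and was not called: it had 95.8 to 153 CPM in Q140 (median 129.8), against 98.0 to 175 in wild type (median 141), a log2 fold change of -0.09 ± 0.12. Col6a4 was lower in Q140, at 5.65 to 25.0 CPM (median 15.7) against 14.6 to 42.3 in wild type (median 26.1; -0.76 ± 0.23, adjusted p = 0.00987). It had -0.15 ± 0.23 (adjusted p = 0.673) in Q140 Polq+/-.

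The FACIT collagen Col20a1 was lower, with 2.35 to 4.02 CPM in Q140 striatum (median 3.45), against 4.44 to 6.81 in wild type (median 5.66). Striatum of Q140 Polq+/- mice had 2.72 to 4.36 CPM (median 3.14), against 4.48 to 6.54 in Polq+/- (median 5.36). Neither pair overlapped, and the log2 fold changes were -0.72 ± 0.11 (adjusted p = 2.06e-06) and -0.69 ± 0.11 (4.16e-06). Col9a2, a chain of type IX collagen, was higher in Q140 Polq+/- (0.27 ± 0.064, adjusted p = 0.00117) and had 0.12 ± 0.065 (adjusted p = 0.178) in Q140. Col14a1 was lower in Q140 (-0.48 ± 0.19, adjusted p = 0.0490) and had 0.02 ± 0.19 in Q140 Polq+/-.

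Of the proteases, Adamts6 and Adamts19 were higher and Adamts2 lower. Adamts6, a close relative of Adamts10, had 6.31 to 7.62 CPM in Q140 striatum (median 7.27), against 2.49 to 5.82 in wild type (median 4.70; log2 fold change 0.69 ± 0.099, adjusted p = 7.37e-07). Q140 Polq+/- mice had 6.56 to 8.29 CPM (median 7.49), against 3.88 to 4.74 in Polq+/- (median 4.49; 0.78 ± 0.099, adjusted p = 7.54e-08). Neither pair overlapped. Adamts10 itself was called in neither.

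Adamts19, whose loss in mice damages heart valves, was a low gene with the largest fold change of the members called in Q140 against wild type. It had 0.957 to 1.90 CPM in Q140 striatum (median 1.42), against 0.303 to 0.979 in wild type (median 0.524), with an overlap through 1 high wild-type mouse (log2 fold change 1.39 ± 0.18, adjusted p = 1.42e-07). On the Polq+/- background, Q140 Polq+/- mice had 1.15 to 1.87 CPM (median 1.39), against 0.354 to 1.101 in Polq+/- (median 0.672), without overlap (1.06 ± 0.18, adjusted p = 1.26e-05). Adamts17 was higher in Q140 (0.29 ± 0.098, adjusted p = 0.0210) and had 0.14 ± 0.098 (adjusted p = 0.313) in Q140 Polq+/-. Adamts18 was lower in Q140 Polq+/- (-0.51 ± 0.14, adjusted p = 0.00431) and had -0.30 ± 0.14 (adjusted p = 0.103) in Q140.

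Adamts2 (ENSMUSG00000036545, GRCm38 chromosome 11, 50602084 to 50807573, plus strand) removes the amino-terminal propeptide of fibrillar procollagens. It had 5.12 to 7.30 CPM in Q140 striatum (median 5.94), against 6.82 to 12.5 in wild type (median 9.06), with all 8 Q140 mice below the wild-type median (log2 fold change -0.64 ± 0.09, adjusted p = 5.00e-07). The Q140 Polq+/- mice had 5.04 to 7.79 CPM (median 6.24), against 8.46 to 10.8 in Polq+/- (median 9.98), without overlap (-0.63 ± 0.089, adjusted p = 5.72e-07). Its more abundant relative Adamts3 moved less: it had 63.3 to 80.2 CPM in Q140 Polq+/- (median 72.0), against 75.01 to 91.2 in Polq+/- (median 78.1; -0.18 ± 0.069, adjusted p = 0.0498), and -0.14 ± 0.069 (adjusted p = 0.132) in Q140. No member of the proteoglycan-cleaving branch was called in either comparison. Its most abundant member Adamts4 had 29.5 to 40.9 CPM in Q140 (median 33.8) and 28.3 to 42.2 in wild type (median 33.1; log2 fold change -0.003 ± 0.071). Uncalled members of the branch lay on both sides in Q140, with Adamts1 at -0.50 ± 0.21 (adjusted p = 0.0670) and Adamts20 at 0.17 ± 0.080 (0.114).

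**Figure D2:**
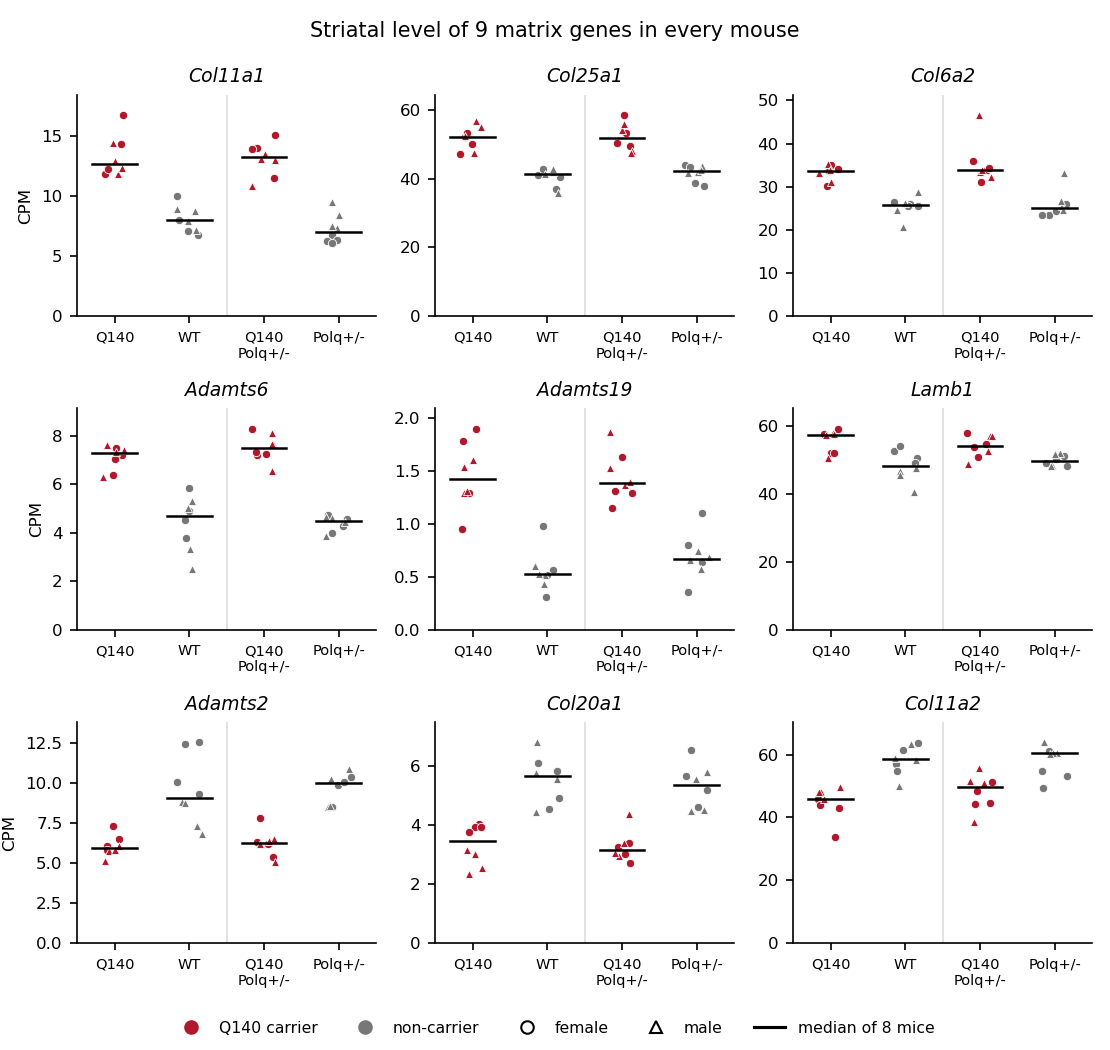
Level of 9 members in striatum of every mouse (vertical axes, CPM) by genotype, with females as circles, males as triangles and a bar at each group median, 8 mice per group. Col11a1, Col25a1 and Adamts6 sit higher in both knock-in groups with no overlap, and Col20a1 sits lower with none.

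The remaining calls were smaller or rested on few mice. Lamb1 was higher, with 50.6 to 59.3 CPM in Q140 (median 57.5), against 40.6 to 54.1 in wild type (median 48.4; log2 fold change 0.20 ± 0.044, adjusted p = 0.000372), and by 0.12 ± 0.044 (adjusted p = 0.0375) in Q140 Polq+/-. Col15a1, a collagen of vascular basement membranes, was lower in Q140 (-0.36 ± 0.10, adjusted p = 0.00485) and had -0.18 ± 0.10 (adjusted p = 0.190) in Q140 Polq+/-. Col7a1, the anchoring fibril collagen, was higher in Q140 Polq+/- (0.22 ± 0.079, adjusted p = 0.0284) and had 0.09 ± 0.08 in Q140. Col8a1 was called lower in Q140 Polq+/- (-1.67 ± 0.60, adjusted p = 0.0345), with 0.367 to 0.925 CPM there (median 0.544) and 0.375 to 12.2 in Polq+/- (median 0.517). Only 3 of 8 mice lay below the Polq+/- median, and without Polq+/- female 3 the log2 fold change was 0.14 (adjusted p = 0.663).

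That library, with its choroid plexus markers, was also far above all other striatal libraries for Col8a2 (13.4 CPM against a next highest of 3.58), Col4a3 (2.78 against 0.800), Col4a4 (3.89 against 1.22) and Col9a3 (33.4 against 15.6). Other calls lost under at least 1 alternative were those of Lama3, Col6a4, Col4a1, Col23a1, Adamts17 and Col14a1 in Q140, and of Col7a1, Lamb1, Col23a1, Col2a1 and Adamts3 in Q140 Polq+/-. The calls of Col11a1, Col25a1, Adamts6, Adamts19, Adamts2, Col20a1, Col6a2 and Col11a2 passed the threshold in both comparisons under all 43 alternatives run for them.

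**Figure D3:**
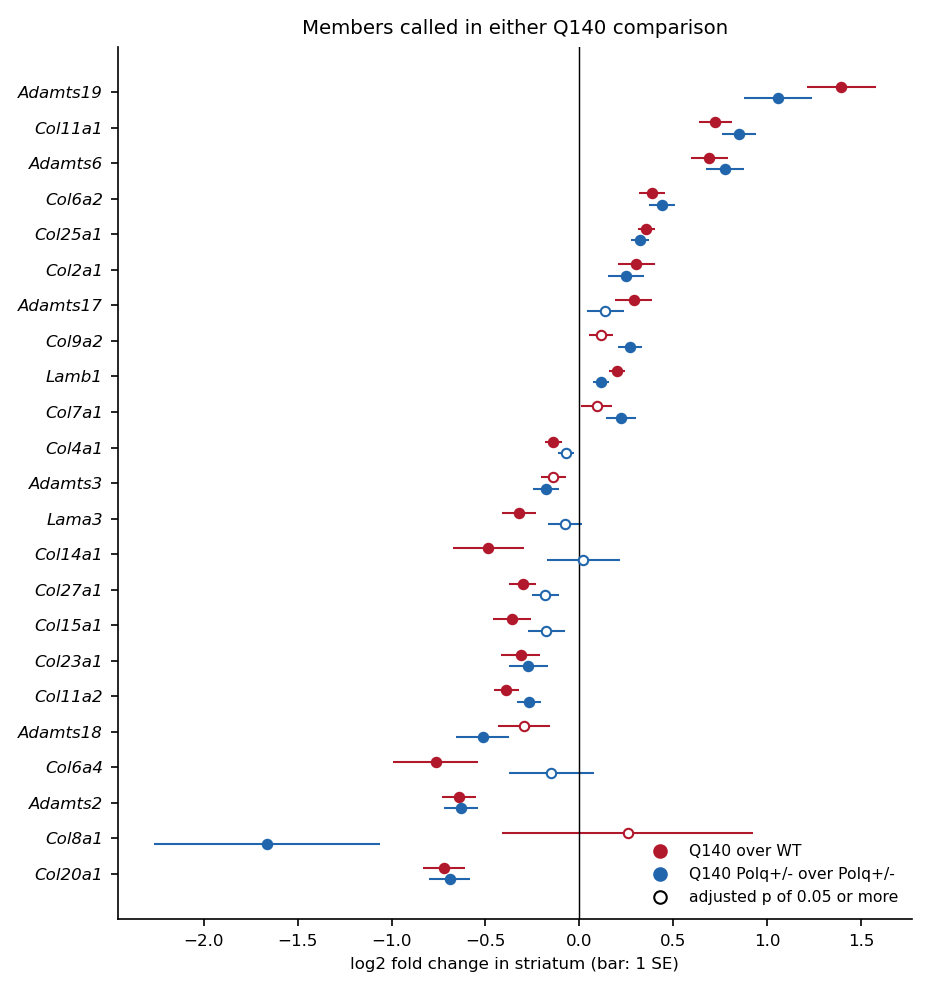
Log2 fold change (horizontal axis, points with standard errors) of 23 members called in Q140 against wild type or in Q140 Polq+/- against Polq+/- in striatum; filled points passed an adjusted p of 0.05 and open points did not. The 11 members filled in both comparisons lie on the same side of 0 in each.

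The type IV and vascular members were examined beside markers of vessel cells. Col4a1 had 23.1 to 27.4 CPM in Q140 striatum (median 26.1), against 24.5 to 31.0 in wild type (median 29.3), all 8 Q140 mice below the wild-type median but with overlapping ranges (log2 fold change -0.14 ± 0.044, adjusted p = 0.0146). Col4a2, on the other side of the shared promoter, had 35.4 to 41.1 CPM in Q140 (median 39.3), against 35.5 to 46.5 in wild type (median 41.9; -0.08 ± 0.043, adjusted p = 0.170). In Q140 Polq+/- neither was called, with -0.07 ± 0.044 (adjusted p = 0.246) for Col4a1 and -0.06 ± 0.043 (0.316) for Col4a2. The call of Col4a1 was lost with plate column as a term (-0.11, adjusted p = 0.0747) and on the FPKM scale (-0.07, adjusted p = 0.224).

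Endothelial markers fell beside it: 7 of 10 were lower and 0 higher in Q140 (6 lower with limma on FPKM), with sums of 208.7 to 228.1 CPM against 240.8 to 266.0 in wild type. In Q140 Polq+/- 5 of 10 were lower (0 with limma on FPKM), with sums of 209.3 to 244.0 CPM against 201.5 to 266.0 in Polq+/-. Of 10 mural cell markers 5 were lower in Q140, with sums of 191.0 to 229.2 CPM against 232.6 to 262.4 in wild type, and 3 in Q140 Polq+/-, with sums of 204.3 to 230.9 CPM against 224.1 to 263.4 in Polq+/-. No fibroblast or meningeal marker of 10 was called in either comparison. No marker of these lists was at 0, and the part of vessel cells in the lower Col4a1 and Col15a1 was not tested. Sums of oligodendrocyte markers also had a lower median in Q140 than in wild type (5775 against 6526 CPM). The same held for cortical excitatory neuron (676.9 against 730.6), astrocyte (685.8 against 735.7) and microglia markers (242.2 against 267.1). Interneuron (773.5 against 756.2), choroid plexus (31.3 against 26.9) and cerebellar granule markers (24.0 against 22.8) had higher medians. All 8 spiny neuron markers were lower in both comparisons, with medians of their sums at 6564 CPM in Q140 and 10851 in wild type, and their part in the members' changes was not tested either.

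All 16 knock-in mice were set against the 16 without it to describe the classes. Of 75 members 26 differed (34.7%, against 44.8% of all genes), 12 higher and 14 lower, where 23.6% of all genes were higher and 21.2% lower. Without the 3 libraries that stood apart 29 differed (13 higher and 16 lower). With limma on log2 (FPKM + 0.1) the split was 17 higher and 8 lower. The groups did not overlap for 5 members, and for 4.82% of all genes; among the 5 were Col11a1 (0.79 ± 0.064), Adamts6 (0.73 ± 0.07), Col25a1 (0.34 ± 0.032) and Col20a1 (-0.71 ± 0.077).

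Called members of most classes went both ways. Fibrillar collagens had 2 higher and 2 lower of 11, FACIT 1 and 1 of 9, transmembrane collagens 1 and 1 of 4, and type VI chains 1 and 1 of 6. Laminin alpha chains had 1 higher, Lama2 of the laminin of muscle and vessel membranes (0.13 ± 0.043, adjusted p = 0.0106), and 1 lower, Lama3 (-0.20 ± 0.064, adjusted p = 0.0102) of 5. Beta chains had 1 higher, Lamb1 (0.16 ± 0.031), and 1 lower, Lamb3 (-0.19 ± 0.068), of 3. Type IV collagens had 1 lower of 6, the multiplexin and other collagens 1 higher and 2 lower of 5, and the type VIII chains 0 of 2. Both tested procollagen-cleaving proteases were lower, Adamts2 (-0.64 ± 0.063) and Adamts3 (-0.16 ± 0.049). The call of Adamts3 was lost on the FPKM scale (-0.09, adjusted p = 0.110). Of 7 proteoglycan-cleaving proteases none was called, of 7 other Adamts proteases 3 were higher and 1 lower, and of 5 Adamts-like proteins 1, Adamtsl5, was lower (-0.13 ± 0.052, adjusted p = 0.0437), a call lost under 20 of 42 alternatives. Col26a1 was also lower (-0.28 ± 0.088, adjusted p = 0.00951).

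**Figure D4:**
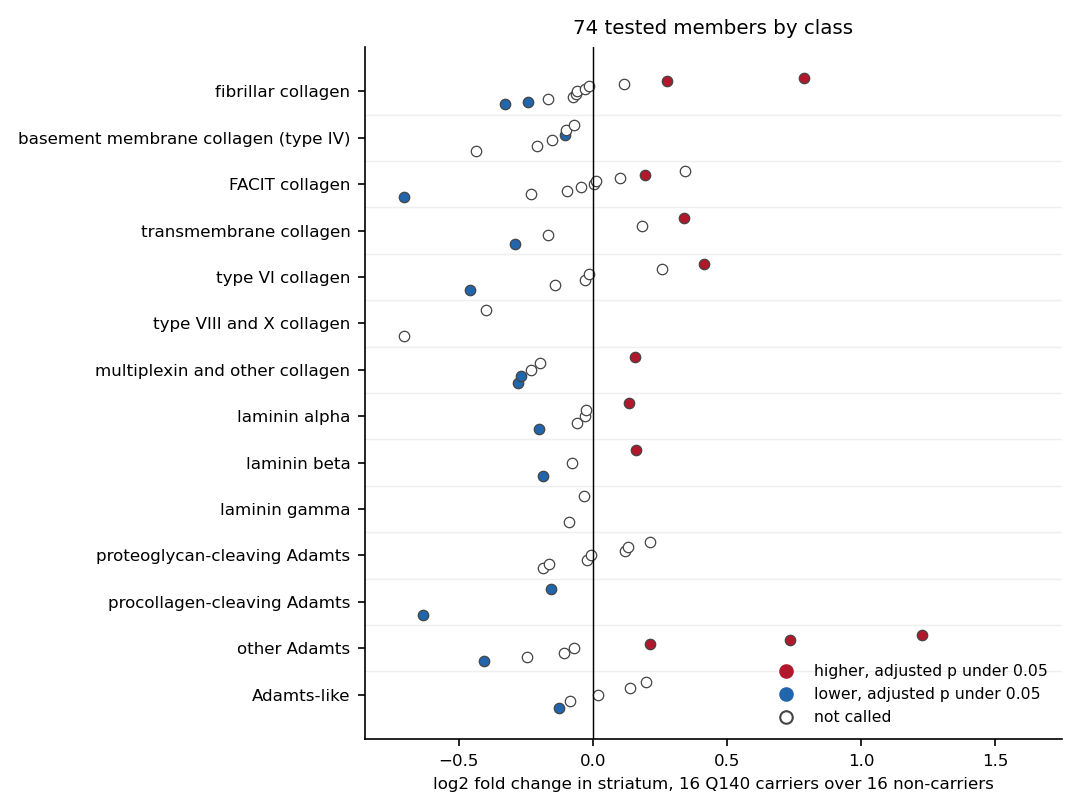
Log2 fold change in striatum of all 16 knock-in mice against the 16 mice without it (horizontal axis) for 74 tested members, by class, with called members filled. Called members lie on both sides of 0 in the fibrillar, FACIT, transmembrane and type VI classes and in the laminin alpha and beta chains, and both procollagen-cleaving members, Adamts2 and Adamts3, lie to the left.

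Genes that build, process and bind the matrix were read from companion lists, to be set against the 16.9% of all genes that were higher and 15.2% that were lower in Q140, and the 16.1% and 15.3% in Q140 Polq+/-. Of 15 tested basement membrane partners, 1 was higher and 2 lower in Q140, and 1 higher and 1 lower in Q140 Polq+/-. The elastic fibre protein Fbln5 was the largest: it averaged 5.31 ± 0.74 CPM in Q140 and 8.65 ± 1.2 in wild type (SD, n = 8 each; log2 fold change -0.70, adjusted p = 9.28e-09), and 5.44 ± 0.72 CPM in Q140 Polq+/- and 9.28 ± 1.2 in Polq+/- (-0.76, adjusted p = 1.23e-09). Neither pair overlapped. The calcium-binding Smoc1 was higher in both (0.27 and 0.26), and the laminin linker nidogen, Nid1, was lower in Q140 (-0.21, adjusted p = 0.0134).

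Of 23 tested genes of collagen maturation, 0 were higher and 5 lower in Q140, and 2 were higher and 6 lower in Q140 Polq+/-. The prolyl 3-hydroxylase P3h3 averaged 25.0 ± 2.0 CPM in Q140 and 33.6 ± 1.6 in wild type (log2 fold change -0.42, adjusted p = 3.66e-10), and had -0.42 (adjusted p = 3.78e-10) in Q140 Polq+/-. Bmp1, which removes the carboxy-terminal propeptide of procollagens, had -0.36 and -0.28 (adjusted p = 3.44e-08 and 5.11e-06). P4ha1, the catalytic subunit of prolyl 4-hydroxylase, had -0.38 and -0.61 (adjusted p = 0.000700 and 1.01e-06). With limma on FPKM the list had 2 higher and 4 lower in Q140, and 4 higher and 3 lower in Q140 Polq+/-.

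Of 15 proteoglycans and partners, 2 were higher and 2 lower in Q140, and 1 higher and 3 lower in Q140 Polq+/-. The hyaluronan synthase Has1 was higher in both (0.58 and 0.57), the neuronal proteoglycan Cspg5 lower in both (-0.17 and -0.14), and brevican, Bcan, lower in Q140 (-0.12, adjusted p = 0.00320). Of 12 matrix receptors, 1 was higher and 1 lower in Q140, and 1 higher and 2 lower in Q140 Polq+/-. The laminin-binding integrin Itga3 was higher in both (0.26 and 0.39), and dystroglycan, Dag1, was lower in Q140 Polq+/- (-0.17, adjusted p = 1.65e-05). Of 11 matrix metalloproteases and inhibitors, 1 was higher and 1 lower in Q140, and 1 higher and 2 lower in Q140 Polq+/-. Timp2, an inhibitor of matrix metalloproteases, averaged 333 ± 15.0 CPM in Q140 and 259 ± 8.72 in wild type (0.36, adjusted p = 1.43e-11) and had 0.33 (adjusted p = 2.06e-10) in Q140 Polq+/-, without overlap in either. Without the 3 libraries that stood apart, the metalloprotease list had 1 higher and 2 lower in Q140, and 1 higher and 3 lower in Q140 Polq+/-. The proteoglycan list then had 2 higher and 3 lower in Q140, and 2 and 2 in Q140 Polq+/-. The basement membrane partners then had 1 higher and 2 lower in Q140 Polq+/-, and collagen maturation 3 higher and 5 lower of 24 tested.

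In cortex few members passed the test. Between Q140 and wild type 1 of 75 was called (0.348% of all genes were), and between Q140 Polq+/- and Polq+/- 0 were (0.337% of all genes), as with DESeq2. Adamtsl1 (ENSMUSG00000066113, GRCm38 chromosome 4, 85514172 to 86428385, plus strand), an Adamts-like protein without protease activity, had 4.03 to 6.38 CPM in Q140 cortex (median 5.04), against 2.90 to 3.86 in wild-type cortex (median 3.53). The groups did not overlap (log2 fold change 0.51 ± 0.096, adjusted p = 0.00498). In Q140 Polq+/- cortex it had 3.41 to 5.53 CPM (median 4.45), against 2.94 to 4.58 in Polq+/- (median 3.74; 0.24 ± 0.097, adjusted p = 0.356).

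Next by p in Q140 cortex were Adamts2 (0.24 ± 0.08, adjusted p = 0.229) and Lamc1 (0.11 ± 0.042, adjusted p = 0.314), neither called. With all 16 knock-in against 16 other mice 2 were called (2.46% of all genes were), Adamtsl1 (0.38 ± 0.068, adjusted p = 0.000873) and the proteoglycan-cleaving Adamts20 (0.12 ± 0.034, adjusted p = 0.0448). Adamts20 lost its call under 26 alternatives, 4 of them other models and the rest single libraries left out.

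The effect of the knock-in was then compared between the tissues of the same mice, as the log2 effect in striatum minus that in cortex. It differed for 20 of 76 members (32.1% of all genes did), 9 higher and 11 lower in striatum, where 15.7% of all genes were higher and 16.3% lower, and for 21 (8 higher and 13 lower) without the 3 mice whose striatal library stood apart. With limma on log2 (FPKM + 0.1) the split was 11 higher and 7 lower. Col11a1 had a difference of 0.94 ± 0.078 (adjusted p = 6.89e-12): its cortical levels were 16.4 to 21.3 CPM in Q140 (median 19.1) and 19.1 to 27.2 in wild type (median 20.5; log2 fold change -0.16 ± 0.081). Adamts6 had 0.60 ± 0.099 (adjusted p = 4.60e-06), Col25a1 0.44 ± 0.043 (9.98e-11) and Col6a2 0.26 ± 0.043 (4.80e-06).

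Adamts2 had a difference of -0.81 ± 0.11 (adjusted p = 1.95e-07), with 6.74 to 9.81 CPM in Q140 cortex (median 7.30) and 5.399 to 6.93 in wild-type cortex (median 6.63). Its ranges overlapped in cortex, and 8 of 8 Q140 mice lay above the wild-type median there, against 8 of 8 below it in striatum. Col6a4 had the widest difference in the lower direction, -1.10 ± 0.16 (adjusted p = 1.74e-06). That difference also holds an uncalled and variable cortical rise. In cortex Col6a4 averaged 5.30 ± 1.88 CPM in Q140 and 4.07 ± 2.07 in wild type (SD, log2 fold change 0.35 ± 0.34, adjusted p = 0.795). Col20a1 (-0.48 ± 0.09), Adamts18 (-0.42 ± 0.12), Col23a1 (-0.40 ± 0.097) and Col11a2 (-0.30 ± 0.049) followed. Adamts19 had 1.32 ± 0.28 (adjusted p = 0.000219), but in cortex it was at 0.0294 to 0.401 CPM over all libraries and was not tested there alone. Col2a1 (-0.05 ± 0.12, adjusted p = 0.792) and Col9a2 (0.01 ± 0.068, adjusted p = 0.909), both called in striatum, were not called for a difference between the tissues.

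**Figure D5:**
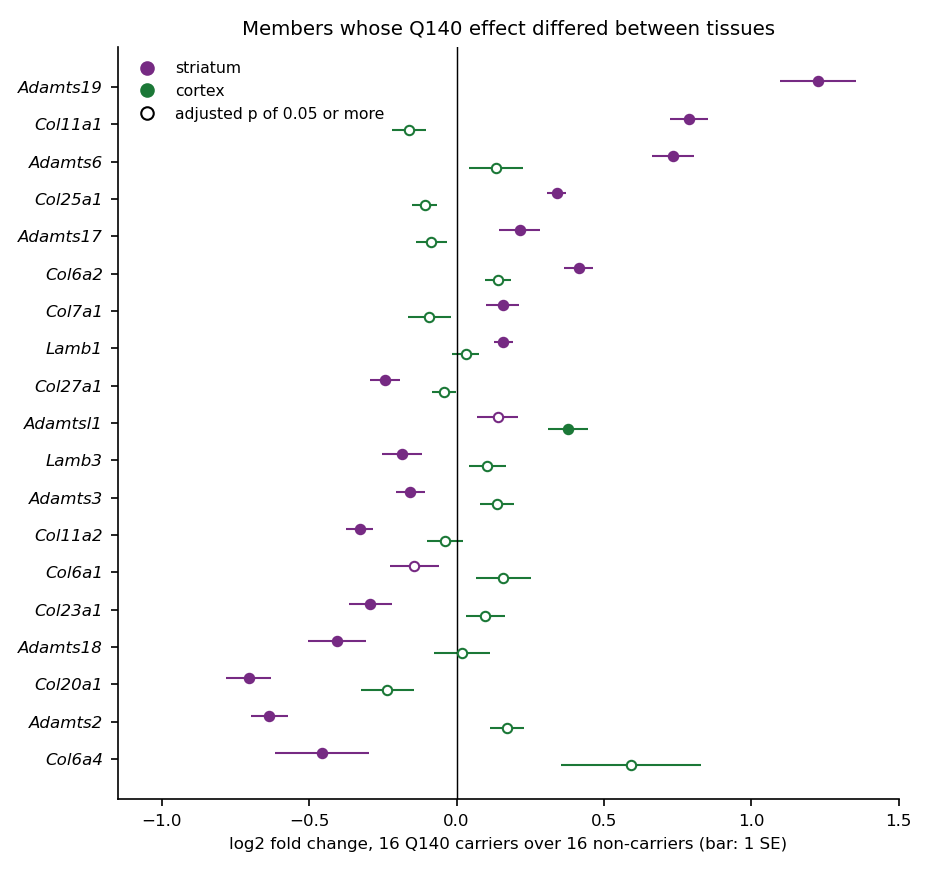
Log2 fold change of all 16 knock-in mice against the 16 without it (horizontal axis, points with standard errors) in striatum (purple) and cortex (green) for 19 members whose effect differed between the tissues. Col11a1 and Col25a1 lie further right in striatum than in cortex, Adamts2 lies to the left in striatum and to the right in cortex, and Adamts19 has no cortical point.

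The direction of a member's change was set beside its tissue pattern, using Q140 Polq+/- against Polq+/-, whose groups hold no wild-type library. Scaling and the estimate of spread still came from fits over all genotypes. Of the 10 members that were higher in Q140 Polq+/-, 5 were striatal in wild type (Adamts6, Col6a2, Adamts19, Lamb1 and Col2a1), 2 were cortical (among them Col11a1) and 3 were not called between the tissues. Of the 7 that were lower, 5 were striatal (Adamts2, Col20a1, Col11a2, Adamts18 and Adamts3) and 2 cortical (Col8a1 and Col23a1). Of all genes higher in Q140 Polq+/-, 26.1% were striatal in wild type, 58.2% cortical and 15.7% not called, and of all genes lower there 65.5% were striatal, 23.3% cortical and 11.2% not called. Among the members called, both tissue patterns were thus found in both directions. For the 2 cortical members that were lower, the call of Col8a1 rested on Polq+/- female 3. That of Col23a1 was lost under some of the alternatives.

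No member passed the threshold between mice that differed by the Polq label. Between Polq+/- and wild type 0 of 75 were called in striatum (0.0493% of all genes were) and 0 in cortex (0.0442%). Between Q140 Polq+/- and Q140, 0 were called in striatum (0.0547%) and 0 in cortex (0.0552%), and DESeq2 also called 0 in each. The smallest p in striatum was that of Col8a1 in Polq+/- (log2 fold change 1.68 ± 0.61, adjusted p = 0.938), which was -0.08 without Polq+/- female 3, followed by Col14a1 (-0.43 ± 0.19). In Q140 Polq+/- against Q140 it was that of the proteoglycan-cleaving Adamts1 (0.51 ± 0.21), then Col7a1 (0.16 ± 0.079). In cortex it was that of Col4a2 in Polq+/- (-0.16 ± 0.054, adjusted p = 0.999). Polq itself was not called in striatum by the same edgeR tests. It had -0.90 ± 0.32 (adjusted p = 0.938) in Polq+/- and -1.18 ± 0.33 (0.926) in Q140 Polq+/- against Q140. For cortex the values were -1.06 ± 0.22 (adjusted p = 0.0797) and -1.14 ± 0.23 (0.0394), and only the last was called. The absence of calls among members is therefore of limited weight.

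The knock-in effect did not differ detectably by Polq genotype or sex either. The interaction with Polq called 0 members in striatum (0% of all genes) and 0 in cortex (0%), and DESeq2 called 0 in both. Adamts1 had the smallest p in striatum (0.67 ± 0.29, adjusted p = 0.996) and Lamb2 in cortex (-0.14 ± 0.05, adjusted p = 0.990). The median SE of a member's interaction was 0.15 in striatum and 0.14 in cortex on the log2 scale, which limits the size of interaction that these data could show. The interaction with sex, males minus females, called 0 in striatum (0%) and 0 in cortex (0%). Col11a1 had the smallest p in striatum, with an effect of 0.63 in males and 0.95 in females (difference -0.31 ± 0.11, adjusted p = 0.967), and Col6a3 in cortex, with 0.31 in males and -0.21 in females (0.51 ± 0.13, adjusted p = 0.668).

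Some members share exonic bases with other genes, and since no source used here states whether counting was by strand, the origin of such reads is uncertain. In the GRCm38 annotation the shared part was 6.07% of Col9a3 (with Tcfl5), 5.65% of Col4a3, 1.90% of Col6a4 and 1.54% of Col20a1, and Col4a1 and Col4a2 share 22 exonic bases. Members on the chromosome of Polq lay 20.5 Mb (Col8a1), 48.7 Mb (Adamts1) and 48.8 Mb (Adamts5) from it, and those on the chromosome of Htt 54.8 Mb (Adamts3) and 102.0 Mb (Col26a1) from it.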

How the data were processed

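RNA of 32 mice, from striatum and cortex, went through a stranded TruSeq kit, per the labels' protocols. STAR 2.7.5c, SAMtools 1.10, HTSeq 0.12.3 and the GRCm38 (mm10) build are named in the submitters' processing notes, and no source used here states whether counting was by strand. The authors deposited raw counts per gene and library. The deposited FPKM values equal those counts scaled by length and library total, with a relative spread of 6.94e-09 over 15456 genes. The tables held 0 columns of other samples. Replicates are separate mice.

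edgeR 4.0.16 under R 4.3.3 tested the counts (quasi-likelihood, robust, TMM scaling, default low-count filter, sex as a covariate), with all 32 libraries of a tissue in 1 fit. The filter left 18270 genes in striatum, 18116 in cortex and 19091 in the fit over both tissues, which had the mouse as a block. Adjustment was by Benjamini-Hochberg over all genes tested, and a gene was called under 0.05. SE is the size of the log2 fold change divided by the square root of its F. CPM are TMM-scaled within a tissue, and between tissues over both together. Sums of markers were scaled once, and the same sums are given within and between tissues. With counts simulated from the mean levels and library sizes of these samples, 71.7% of genes changed by 0.4 on the log2 scale and 98% of those changed by 1 were recovered for Q140 against wild type in striatum, over 18270 genes. The simulation gave every gene the same fixed spread between mice and held no outlying library. Recovery of members with a wider spread was therefore not measured.

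The members, gene lists and tests were chosen with earlier results of these data known. Named members were those called, the 3 of smallest p where fewer than 3 were called, the 8 largest differences each way between tissues, the 2 highest of each class with Col4a1 and Col4a2, and up to 4 called genes of a companion list. Counts cover all members, but 1 member is not reported here by name or value and is left out of the figures. Other members were named after their values were seen, beside these. Same-numbered mice correlated at a median of 0.020 in striatum and 0.027 in cortex after group means were removed, so numbers were not used to pair mice. The alternatives were DESeq2 1.42.0 and its size factors in edgeR, limma 3.58.1 on log2 FPKM with a pseudocount of 0.1 or 1, fits without the filter, without the sex term or with just the compared groups, a replicate block, plate column as a term, and libraries left out. Genotypes were not spread evenly over the plate columns. In each tissue the column with the most wild-type libraries held none of Q140. The main fits had no term for plate column, so it was partly confounded with Q140 against wild type. No column held libraries of both tissues, so tissue and plate column cannot be told apart.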

Additional observations from a re-analysis of the deposited data

Results flagged for a closer look

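In groups of 8 mice, 11 of 96 member and group pairs in striatum held a mouse that stood apart. Its gap to its nearest neighbour, divided by the range of the group, was above Dixon's 95% critical value. Chance gives about 1 in 20 for independent, normally spread values. These pairs came from members called in the same 32 libraries and are not independent, so the 11 of 96 cannot be judged by that rate. Col8a1 in Polq+/- had the widest gap (0.973), from female 3 at 12.2 CPM against 0.689 in the next mouse, the library with raised choroid plexus markers. Col8a1 in Q140 Polq+/- also had a high mouse, female 3 at 0.925 CPM against 0.617 (0.552). Col15a1 in Q140 had a gap of 0.777 (female 2, 5.35 CPM against 3.59). Col6a2 had a high mouse in Q140 Polq+/- (male 4, 46.6 CPM against 36.0; 0.680) and in Polq+/- (male 3, 33.3 against 26.7; 0.659). Col20a1 in Q140 Polq+/- had male 1 high (0.589), Col11a2 in Q140 had female 3 low (0.581), and Adamts17 in Polq+/- had male 4 high (0.553). In wild type, female 3 was high for Adamts19 (0.563), and male 3 was low for Adamts3 (0.553) and high for Col2a1 (0.537).

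The effect of the knock-in differed between the tissues for 20 members, 19 of them named here, by edgeR's test of the difference itself (adjusted p under 0.05), given here as striatum minus cortex on the log2 scale. It was higher in striatum for Adamts19 (1.32), Col11a1 (0.94), Adamts6 (0.60), Col25a1 (0.44), Adamts17 (0.30), Col6a2 (0.26), Col7a1 (0.23) and Lamb1 (0.12). It was lower in striatum for Col6a4 (-1.10), Adamts2 (-0.81), Col20a1 (-0.48), Adamts18 (-0.42), Col23a1 (-0.40), Col6a1 (-0.30), Col11a2 (-0.30), Adamts3 (-0.30), Lamb3 (-0.29), Adamtsl1 (-0.24) and Col27a1 (-0.21).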

How the results depend on the processing

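The striatal counts for the knock-in stayed within 1.5 times of those reported under all alternatives run, at 17 to 20, 12 to 19 and 25 to 29 members for Q140 against wild type, Q140 Polq+/- against Polq+/- and all knock-in mice, and at 17 to 21, 13 to 18 and 25 to 29 with single libraries left out. Replicate numbers did not pair the mice; with the replicate block the counts were 20, 15 and 28 in striatum and 1, 0 and 1 in cortex. Comparisons by the Polq label and the interactions with Polq and sex stayed at 0 under the alternatives run for them. The count of 2 for all knock-in mice in cortex was 1 with no low-count filter, with no sex term, with the replicate block and with plate column as a term, and 1 to 4 with a library left out; Adamts20 was the call lost in those 4 models.

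Col8a1 changed sign without Polq+/- female 3. Over single libraries left out, its log2 fold change ran from -1.83 to 0.14 in Q140 Polq+/- against Polq+/- and from -0.076 to 1.85 in Polq+/- against wild type, and it was 0.13 in the first with the 3 libraries that stood apart left out. Calls were lost most often for Adamts3 in Q140 Polq+/- (31 of 43 alternatives, -0.27 to -0.10 over all 43), Col14a1 in Q140 (28 of 43), Adamts20 in cortex (26 of 41), Adamtsl5 (20 of 42, all knock-in mice), and Col23a1 and Col2a1 in Q140 Polq+/- (18 and 17 of 43). For the difference between tissues, Col6a1 was lost in 2 of 4 alternatives and Col27a1, Adamtsl1, Lamb3, Col7a1 and Lamb1 in 1 each. The cause was not tested. Single libraries were not left out for comparisons between tissues or by sex. Adamts19 had 11 to 68 reads per library in striatum of Q140 and wild type, which limits its precision.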
